A study of Mus musculus with 2 samples.

Results

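Antiviral genes induced by type I interferon were described here as a set of 50 named genes, chosen by symbol from the names on the array. Of the 50, 49 had at least 1 noncontrol probe of that name, and Ifi205 had none. These 49 genes were represented by 77 of the 55681 noncontrol probes and stand among 23972 named genes on the array. They were grouped by role into sensors and enzymes of nucleic acids, OAS and IFIT effectors, the ISG15 and ubiquitin pathway, and 3 groups of others. The labels give no measure of interferon in these cultures.

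The RNA came from CD4 T cells sorted from spleen cultures of female mice that carry a transgenic T cell receptor for ovalbumin (OVA), 24 h after OVA was added at 0.1 mg/mL. For the co-culture, naive splenocytes were combined with as many cells from an earlier culture with TSST-1 (0.1 μg/mL), a bacterial toxin that stimulates many T cells at the same time; the titles call these added cells anergic, meaning that they respond poorly to antigen. The naive-only culture held naive splenocytes with OVA at the same total density. Both cultures thus share the transgenic receptor and the OVA stimulus, and the co-culture differs in the added cells, in their TSST-1 treatment and in the lower density of naive cells. The labels do not state that the sort separated naive from anergic CD4 T cells, so the co-culture RNA may come from both. Each culture gave 1 single-colour array, so no difference has a replicate check, no test between the cultures could be made, and every statement below compares these 2 arrays.

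Type I interferons are secreted when cells sense foreign nucleic acid. They act through the receptor encoded by Ifnar1 and Ifnar2, which activates a complex of transcription factors that includes STAT2 and IRF9, and this complex binds the interferon-stimulated response element (ISRE) in target promoters. The induced proteins sense, bind, edit or destroy viral RNA and DNA, conjugate the ubiquitin-like protein ISG15, or block virus entry and budding. T cells both respond to interferon and carry some of these transcripts without infection.

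A level below is the log2 processed signal relative to the array's 75th percentile, and a difference is the co-culture level minus the naive-only level. The error beside a difference comes from the scanner software's error model and leaves out the variation between cultures. On the co-culture and naive-only arrays, 45.1% and 46.2% of the probes were well above background, and no spot was saturated. The defining genes of the sorted cells were well above background on both arrays, with 8 of 8 CD4 T cell markers within 2-fold. Cd3e differed by 0.37 ± 0.20 and Cd4 by 0.35 ± 0.20 (technical error), and the median of the 8 was 0.36. The 8 were not uniform, ranging from -0.92 to 0.90, with 2 negative and 6 positive.

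Most of the antiviral genes were lower in the co-culture, but they were not lower to the same degree. Of the 49 genes, 43 were above background on both arrays, and 16 of these (37.2%) were at least 2-fold lower in the co-culture. The same was true of 5.2% of all named genes above background on both arrays. Ifitm1 alone was at least 2-fold higher, which is 2.33% of the 43, against 8.28% of all such genes. The other 26 stayed within 2-fold. In these bulk samples, fewer cells of a type and less RNA per cell cannot be told apart. In all, 38 of the 43 (88.4%) had a negative difference, against 53.5% of all genes measured. Of the 38, Dtx3l, Ifi35 and Parp9 turned positive under some alternatives. Dtx3l, at -0.04, did so when the arrays were centred on the median gene, with normexp background correction and with loess on level. Ifi35, at -0.07, did so with loess on level, and Parp9, at -0.27, with other choices of probe. The median of the 43 was -0.70, beside a median of -0.04 over all 12860 genes measured.

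The other 6 genes, Ifit1, Ifit3, Mx1, Mx2, Rsad2 and Parp12, were above background on the naive-only array only, as were 5.65% of named genes above background on either array. No member was above background on the co-culture array only, a pattern seen in 5.02% of those genes. With these 6 taken at their bounds, 21 of 49 genes (42.9%) were at least 2-fold lower, beside 6.99% of all genes above background on either array, and the median was -0.88. Many of the genes with large differences were dim by their mean level over both arrays. By that mean, 16 members were brighter than the median measured gene. Of these, 2 were at least 2-fold lower, Isg15 and Zbp1, beside 2.72% of such genes, and the median of the 16 was -0.29. A low co-culture level itself lowers this mean, so the cut tends to remove genes that were lower. Oas1a, at 2.98 in the naive-only culture and -0.27 in the co-culture, fell below it. Dtx3l, at 2.89 and 2.85, stayed. The subset thus cannot show whether the large differences were confined to dim genes.

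**Figure D1:**
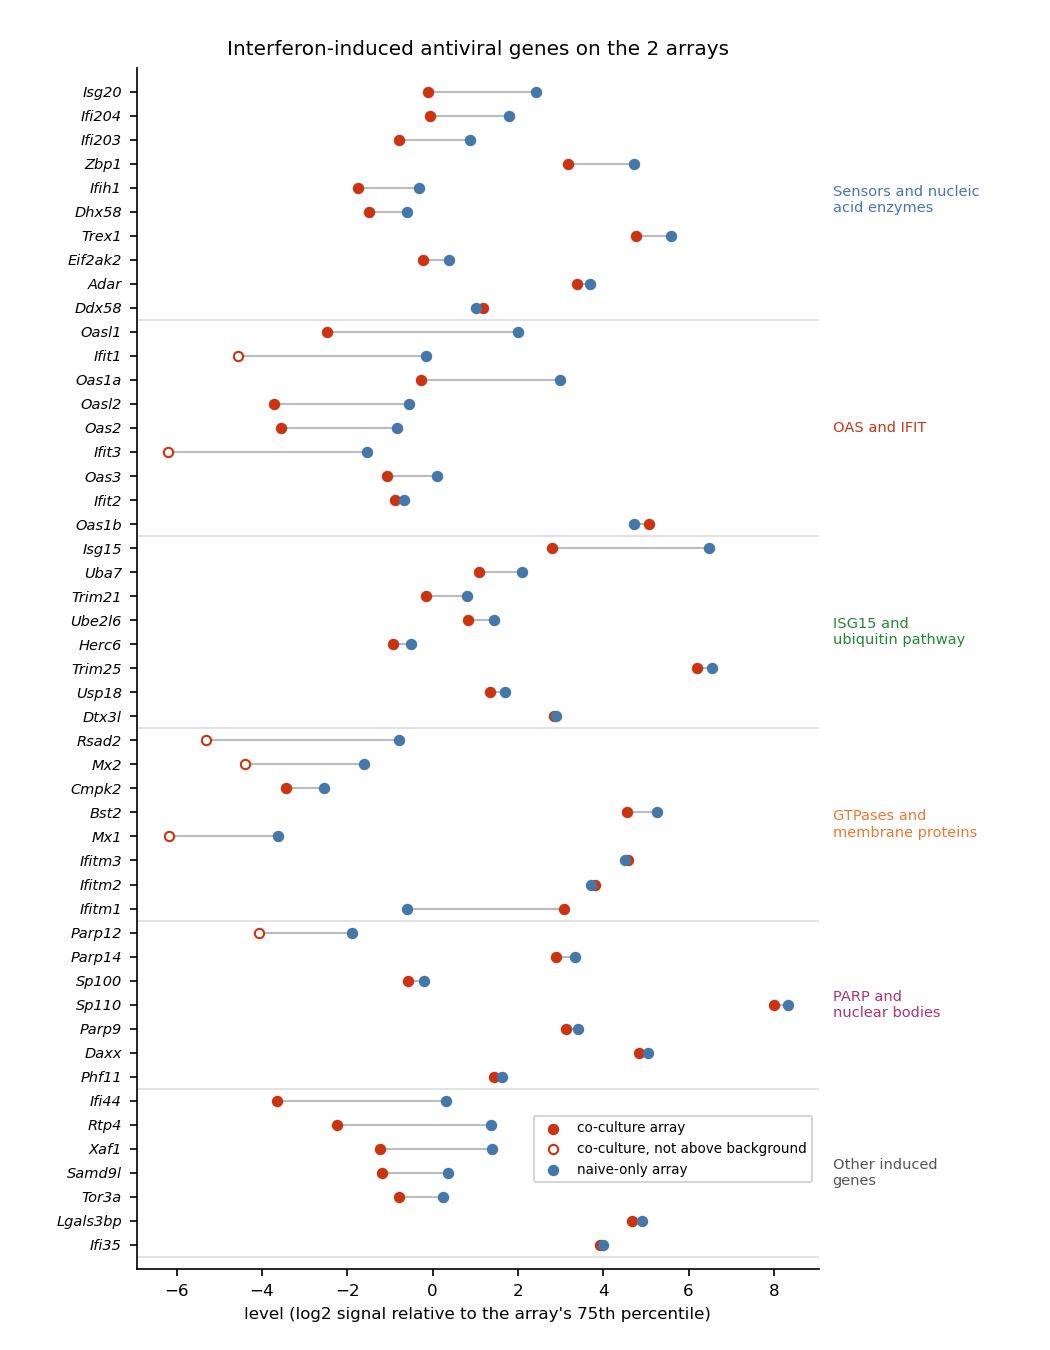
Level of each gene (log2 signal relative to the array's 75th percentile, horizontal axis) on the co-culture array (red) and the naive-only array (blue), 1 array each, by role group; open red points were not above background. The red point lies left of the blue point for most genes, and Ifitm1 is the exception with the widest gap, at 3.07 against -0.59.

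**Figure D2:**
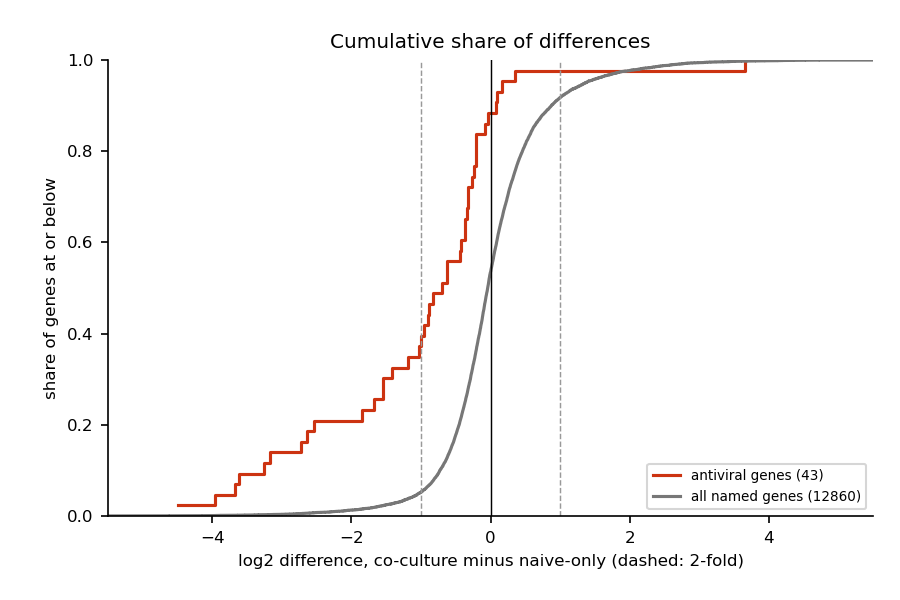
Cumulative share of genes (vertical axis) at or below a log2 difference, co-culture minus naive-only (horizontal axis), for the 43 antiviral genes above background on both arrays (red) and all 12860 such named genes (grey). The red curve lies to the left over the lower part, with 37.2% of the antiviral genes at -1 or below, against 5.2% of all genes.

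Promoter sequences are shown for 4 of the genes that were lower or had a lower bound, for Ifi44, which was lower, and for Ifitm1, which was higher, so that the element that gives the pathway its name can be seen next to the values. Each is the run of 250 bases before the start site on the gene's strand, from RefSeq (GRCm38.p6), and capitals mark matches to the ISRE core, read as GAAA, any 2 bases and GAAA, or to its reverse complement, with overlapping matches run together.
Isg15: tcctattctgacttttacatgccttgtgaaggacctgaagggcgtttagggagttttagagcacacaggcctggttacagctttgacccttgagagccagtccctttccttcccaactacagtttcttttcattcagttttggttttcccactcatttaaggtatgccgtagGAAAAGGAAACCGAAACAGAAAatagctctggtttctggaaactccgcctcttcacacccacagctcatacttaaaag
Ifit1: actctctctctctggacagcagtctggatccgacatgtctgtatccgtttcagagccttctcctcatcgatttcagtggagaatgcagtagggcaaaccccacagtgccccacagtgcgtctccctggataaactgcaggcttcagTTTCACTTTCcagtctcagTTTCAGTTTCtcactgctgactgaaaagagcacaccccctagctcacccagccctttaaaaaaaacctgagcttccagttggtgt
Ifit3: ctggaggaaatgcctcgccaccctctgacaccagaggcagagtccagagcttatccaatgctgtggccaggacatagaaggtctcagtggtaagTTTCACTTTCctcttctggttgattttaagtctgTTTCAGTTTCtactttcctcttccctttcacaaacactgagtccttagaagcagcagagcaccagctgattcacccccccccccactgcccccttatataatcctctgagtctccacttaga
Rsad2: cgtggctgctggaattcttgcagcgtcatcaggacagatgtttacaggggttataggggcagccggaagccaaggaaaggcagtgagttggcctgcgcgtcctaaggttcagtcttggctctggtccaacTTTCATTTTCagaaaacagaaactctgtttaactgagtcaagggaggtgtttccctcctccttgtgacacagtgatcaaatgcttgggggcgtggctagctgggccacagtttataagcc
Ifi44: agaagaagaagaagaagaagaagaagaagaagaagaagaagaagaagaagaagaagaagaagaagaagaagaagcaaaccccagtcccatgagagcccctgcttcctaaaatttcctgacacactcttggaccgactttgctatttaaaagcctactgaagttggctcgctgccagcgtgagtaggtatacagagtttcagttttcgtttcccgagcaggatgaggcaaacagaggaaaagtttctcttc
Ifitm1: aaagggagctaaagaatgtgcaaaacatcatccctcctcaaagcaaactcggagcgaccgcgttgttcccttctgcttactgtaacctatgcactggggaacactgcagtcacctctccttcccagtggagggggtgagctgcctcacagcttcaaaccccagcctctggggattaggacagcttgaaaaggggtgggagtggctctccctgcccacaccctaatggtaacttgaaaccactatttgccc
These lie at chr4:156200819-156201068, minus strand (Isg15), chr19:34640639-34640888, plus strand (Ifit1), chr19:34583279-34583528, plus strand (Ifit3), chr12:26456453-26456702, minus strand (Rsad2), chr3:151749911-151750160, minus strand (Ifi44) and chr7:140967826-140968075, plus strand (Ifitm1). The Isg15 stretch held 3 overlapping matches, beginning at positions -78, -72 and -66 from the start site. Ifit1 held 2, beginning at -104 and -85, Ifit3 held 2, at -156 and -122, and Rsad2 held 1, at -120. Neither Ifi44 nor Ifitm1 held these letters in the window.

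With the 50 bases after the start site added to the window, 37 of the 50 members had a promoter in the RefSeq table. The core, on either strand, was present in 15 of these 37 genes (40.5%), against 3.99% of the 27025 genes in the table. It was present in 8 of 15 genes (53.3%) that were at least 2-fold lower or had a lower bound, among them Oas1a, Oas3, Ifih1 and Ifi203. It was also present in 6 of 20 genes (30%) within 2-fold, such as Ddx58, Eif2ak2, Bst2, Ifitm2 and Ifitm3. Matches thus occurred in both sets, and whether they go with the difference was not tested. The letters TTCNNNGAA, which read the same on both strands and form the gamma-activated sequence of genes induced by interferon gamma, were found in 8 of the 37 genes (21.6%), against 9.55% of all genes. They were found in 2 of the 15 lower or bounded genes (13.3%) and in 6 of the 20 within 2-fold (30%). In Bst2 and Ifitm3 a match to this element overlapped a match to the ISRE core. These matches describe letters in a window and are not evidence of binding.

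OAS and IFIT genes had the lowest median difference of the 6 groups, but they were dim for the most part. OAS enzymes bind double-stranded RNA and make oligoadenylates that switch on RNase L, and IFIT proteins bind viral RNA with foreign ends. Of the 9 genes, 7 were above background on both arrays, and 5 of those were at least 2-fold lower, with a median of -2.73. Oasl1, which in mice holds back translation of the Irf7 mRNA, had a level of -2.49 in the co-culture and 2.01 in the naive-only culture. Its difference of -4.49 ± 0.23, or 22.5-fold, was the 8th lowest of the 12860 genes measured, and it was -3.52 with normexp background correction. Oasl2, its neighbour, had levels of -3.73 and -0.56 in the co-culture and naive-only cultures, a difference of -3.17 ± 0.33, or -1.71 with normexp.

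Oas1a, an oligoadenylate synthetase, had a level of -0.27 in the co-culture and 2.98 in the naive-only culture, and was 9.52-fold lower (-3.25 ± 0.21). Its other probe gave -2.84. Oas2 had -3.56 in the co-culture and -0.83 in the naive-only culture (-2.73 ± 0.34), and its difference was -1.37 with normexp. Oas3 had -1.07 in the co-culture and 0.11 in the naive-only culture, and its difference of -1.18 ± 0.21 became -0.94 with normexp, so it stood close to the 2-fold line. Oas1b, the gene behind flavivirus resistance in mice, differed from its cluster, being slightly higher under all scalings but that to CD4 T cell markers (-0.01). It had levels of 5.07 and 4.72 in the co-culture and naive-only cultures, and its 3 probes gave differences of 0.32, 0.35 and 0.41; of these probes, 2 overlap by 43 of 60 bases. In the arrays' annotation (mm9) the brightest probes of these genes lie on chromosome 5, at 121180343 to 121180402 for Oas2, 121203598 to 121203657 for Oas3, 121274109 to 121274168 for Oas1b and 121346735 to 121346794 for Oas1a. The OAS1 genes are similar copies, and cross-hybridisation between them was not tested.

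The 3 IFIT genes, all on chromosome 19, also split. Ifit1 had a level of -4.57 in the co-culture, not above background, and -0.16 in the naive-only culture, which bounds it as at least 13.3-fold lower. Ifit3 had -6.21 in the co-culture, again not above background, and -1.53 in the naive-only culture, and was at least 5.15-fold lower. Each bound sets the naive-only level against the lowest level called above background on the co-culture array, which was -3.90. Ifit2 was within 2-fold, at -0.88 in the co-culture and -0.67 in the naive-only culture, a difference of -0.21 ± 0.21, about the size of its technical error.

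**Figure D3:**
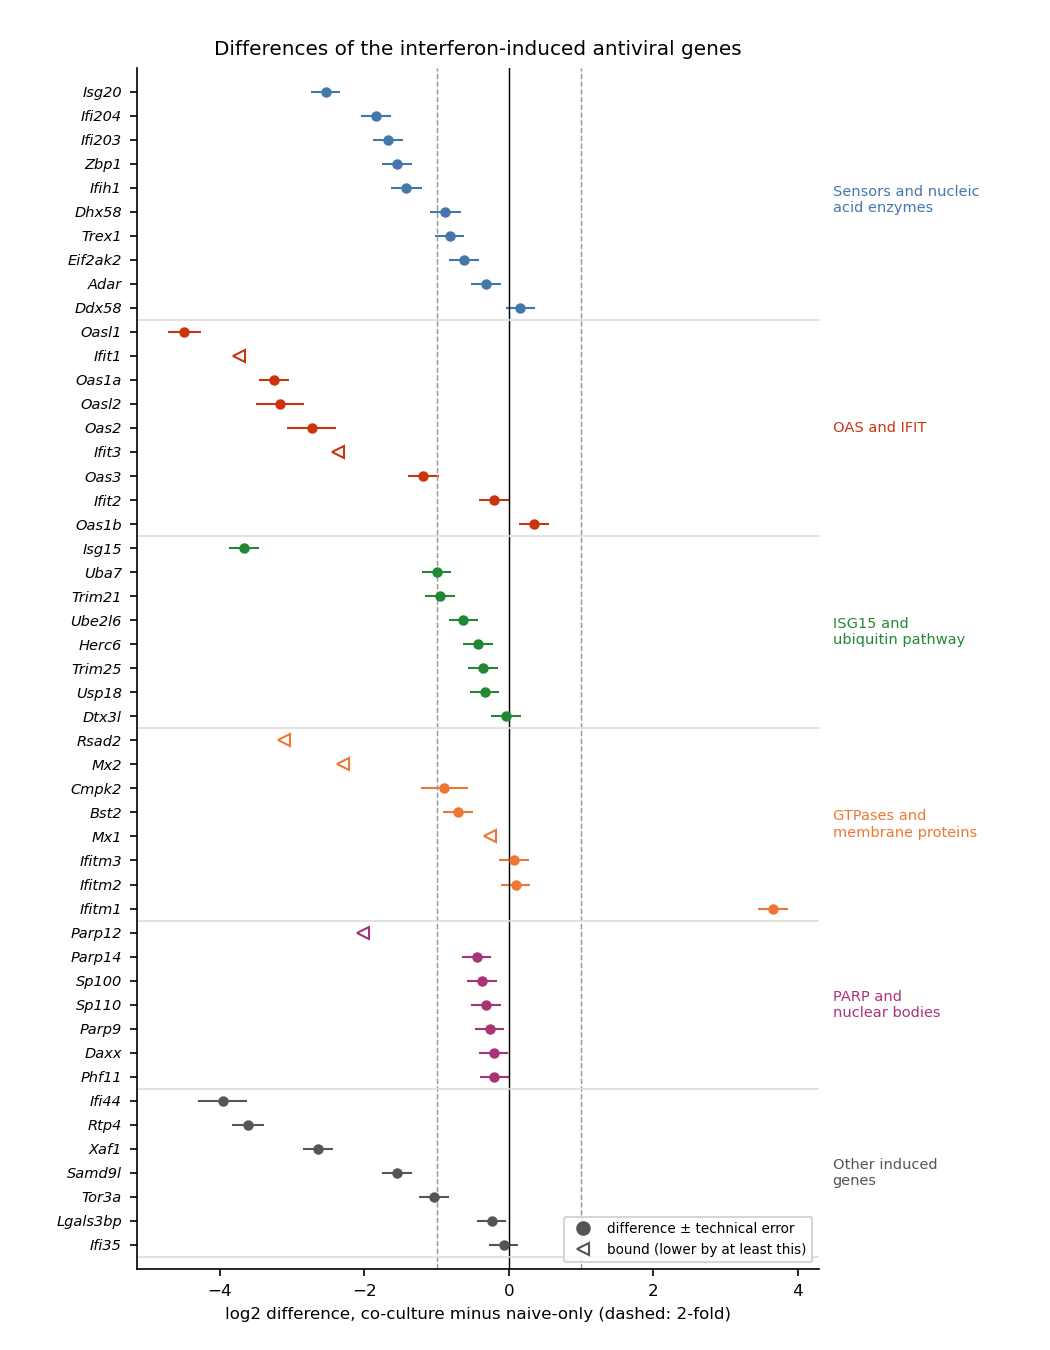
Log2 difference of each gene, co-culture minus naive-only (horizontal axis; dashed lines at 2-fold), by role group; points show the difference ± the technical error of the scanner software, and open triangles show bounds for genes above background on the naive-only array only. OAS and IFIT genes reach -4.49, the genes of the PARP and nuclear body group above background on both arrays lie between -0.45 and -0.20, and Ifitm1 lies at 3.66.

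In the ISG15 and ubiquitin pathway, the modifier itself was far lower while the enzymes that attach or remove it were not. All 8 genes were above background on both arrays and had negative differences (Dtx3l excepted, as above, once centred), but 1, Isg15, was at least 2-fold lower, and the median was -0.53. Isg15, the ubiquitin-like protein joined to targets in the response, had a level of 2.80 in the co-culture and 6.47 in the naive-only culture, and was 12.7-fold lower (-3.67 ± 0.20). Its other probe lies nearby on chromosome 4 and gave -4.01. Uba7, the activating enzyme of ISG15, had 1.09 in the co-culture and 2.09 in the naive-only culture, just inside the 2-fold line, with a technical error of 0.20. Ube2l6, the conjugating enzyme, differed by -0.63 ± 0.20 on its brighter probe and by a bound of at least 3.20-fold lower on the dimmer one, which the co-culture array did not detect. Herc6, the main ISG15 ligase of mice, differed by -0.42 ± 0.21. Usp18, which removes ISG15 and also damps the interferon receptor, had 1.35 in the co-culture and 1.69 in the naive-only culture, a difference of -0.34 ± 0.20. Of the ubiquitin ligases, Trim21, the cytosolic antibody receptor, differed by -0.96 ± 0.21, Trim25, which acts on RIG-I, by -0.36 ± 0.20 and Dtx3l, the partner of Parp9, by -0.04 ± 0.20.

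Sensors and enzymes of nucleic acids divided by gene. Of the 10 with a probe, 5 were at least 2-fold lower and 9 had a negative difference, with a median of -1.15. Among the cytosolic RNA helicases, Ifih1 (MDA5) had a level of -1.74 in the co-culture and -0.32 in the naive-only culture and was lower by -1.42 ± 0.22, or by -0.99 with normexp. Dhx58 (LGP2) differed by -0.88 ± 0.21. Ddx58 (RIG-I) had 1.18 in the co-culture and 1.02 in the naive-only culture, a difference of 0.16 ± 0.20, which lies within its error. On these arrays the 3 helicases of this family did not share a difference. Ddx58 and Ifih1 were apart by more than their technical errors, which leave out variation between cultures. Each of these values rests on 1 probe, since the second probes of Ddx58 and Ifih1 were above background on neither array.

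Zbp1, which binds Z-form nucleic acid and can start necroptosis, was 2.93-fold lower, with 3.18 in the co-culture and 4.73 in the naive-only culture, and its other probe gave -1.65. The PYHIN genes Ifi203 and Ifi204, whose family binds DNA, were lower by -1.67 ± 0.21 and -1.84 ± 0.21. Their second probes gave -1.91 and -2.07. These genes are similar copies in a cluster on chromosome 1, so the probes may not part them. Isg20, an RNA exonuclease, had -0.12 in the co-culture and 2.42 in the naive-only culture, the lowest difference of the group at -2.54 ± 0.21, with -2.73 on its other probe. Eif2ak2 (PKR), the kinase that stops translation on sensing double-stranded RNA, differed by -0.62 ± 0.21. Trex1, the exonuclease of cytosolic DNA, differed by -0.82 ± 0.20 and Adar, which edits double-stranded RNA, by -0.32 ± 0.20.

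Among GTPases and membrane proteins, 3 of 8 genes were above background on the naive-only array only and none of the other 5 was 2-fold lower. Rsad2 (viperin), which makes a chain-terminating nucleotide, had -5.30 in the co-culture and -0.79 in the naive-only culture and was at least 8.63-fold lower. Mx2, a dynamin-like GTPase that traps viral particles, had -4.39 in the co-culture and -1.60 in the naive-only culture, at least 4.91-fold lower. Its relative Mx1 was dim on both, at -6.17 and -3.64 in the co-culture and naive-only cultures, so its bound is no more than 1.2-fold. Cmpk2, a mitochondrial nucleotide kinase gene that neighbours Rsad2 on chromosome 12, was above background on both arrays. It had -3.43 in the co-culture and -2.54 in the naive-only culture (-0.90 ± 0.33, or -0.33 with normexp). Its second probe was above background on neither array. Bst2 (tetherin), which holds budding virus at the membrane, differed by -0.70 ± 0.20.

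The IFITM genes, which hinder fusion of virus with cell membranes, did not move together. Ifitm1 had a level of 3.07 in the co-culture and -0.59 in the naive-only culture and was 12.6-fold higher (3.66 ± 0.21), the 32nd highest of the genes measured. Its other probe gave 3.67, but it overlaps the first by 59 of 60 bases and is not separate evidence. Ifitm2 had 3.81 in the co-culture and 3.71 in the naive-only culture, a difference of 0.09 ± 0.20. Ifitm3, printed in 10 spots, ranged from 4.49 to 4.61 over spots of the co-culture array and from 4.46 to 4.54 over those of the naive-only array, a difference of 0.07 ± 0.20. Ifitm2 and Ifitm3 therefore differed by less than the technical error, and became -0.27 and -0.29 when scaled to CD4 T cell markers, and the 3 genes lie close together on chromosome 7.

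PARP and nuclear body genes were within 2-fold on their brightest probes, except for Parp12. Parp12, an ADP-ribosyltransferase that acts against RNA viruses, had -4.07 in the co-culture, not above background, and -1.88 in the naive-only culture, at least 4.05-fold lower. The other 6 were within 2-fold and all negative, from -0.45 ± 0.20 for Parp14, an ADP-ribosyltransferase, to -0.20 ± 0.20 for Phf11, with a median of -0.29. Parp9, the partner of Dtx3l, differed by -0.27 ± 0.20, but a dim second probe gave 0.29 ± 0.44. Sp100, a nuclear body protein, differed by -0.37 ± 0.21 and Daxx, a histone chaperone of those bodies, by -0.21 ± 0.20. Sp110, of the Sp100 family, was at -0.32 ± 0.20 on its brightest probe, whereas its other 2 gave -1.08 and -0.99. It was the only gene with several measured probes whose probes lay on both sides of the 2-fold line.

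The remaining interferon-induced genes were mostly lower, with 5 of 7 past 2-fold and a median of -1.55. Ifi44, an interferon-induced cytoplasmic protein gene, had -3.65 in the co-culture and 0.31 in the naive-only culture, a difference of -3.96 ± 0.34 that shrank to -2.37 with normexp. Rtp4, a receptor chaperone that also restricts virus replication, had -2.25 in the co-culture and 1.36 in the naive-only culture (-3.61 ± 0.23, or -2.73 with normexp). Xaf1, which favours apoptosis, had -1.24 in the co-culture and 1.40 in the naive-only culture (-2.64 ± 0.21). Samd9l, a translation inhibitor, differed by -1.55 ± 0.21 on a probe on chromosome 6 and by -1.69 on another. Tor3a, a torsin family ATPase, was at the 2-fold line on its brighter probe with -1.03 ± 0.21, and at -0.85 with normexp. Its dimmer probe, not above background on the co-culture array, gave a bound of at least 3.85-fold lower. Lgals3bp, a secreted glycoprotein gene, and Ifi35 were within 2-fold, at -0.24 ± 0.20 and -0.07 ± 0.20.

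Of the 43 measured genes, 16 had more than 1 probe above background on both arrays. The probes of 15 of these had the same sign, Parp9 being the exception, and the median SD between probes of a gene was 0.15. Of the 17 genes past 2-fold, 14 were past it in the same direction under every alternative that measured them, and Ifih1, Oas3 and Tor3a were not. Some alternatives cannot change a value. The level filters keep a gene's difference as it is, and the probe choices do so for genes with 1 measured probe.

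**Figure D4:**
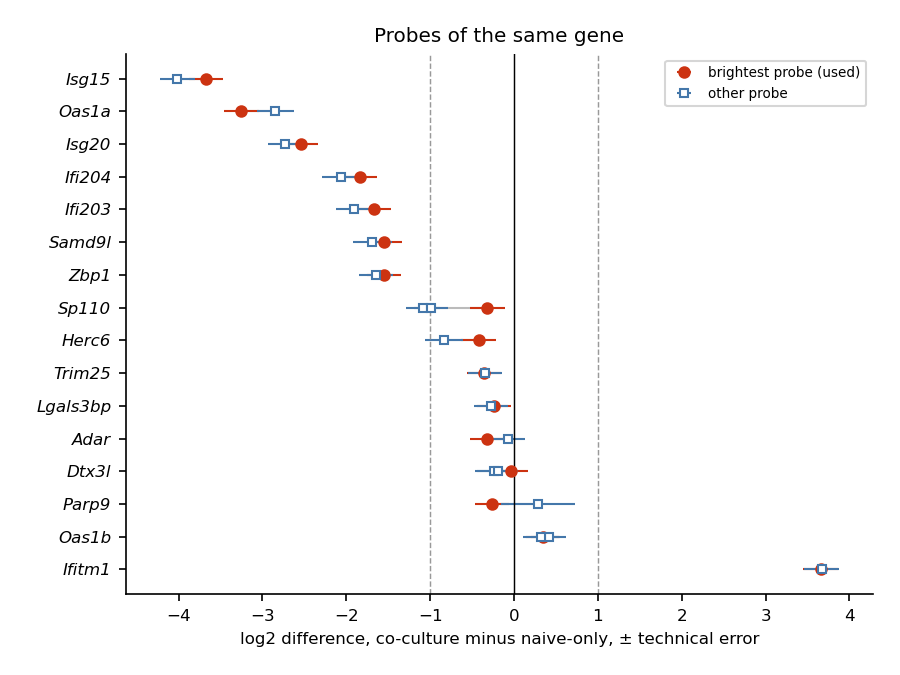
Log2 difference, co-culture minus naive-only (horizontal axis), of each probe above background on both arrays for the 16 genes with more than 1 such probe; red circles are the brightest probe, blue squares the others, and bars the technical error. Probes of a gene mostly lie close together, while those of Sp110 range from -1.08 to -0.32 and those of Parp9 lie on both sides of 0.

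The rest of the pathway was set beside these genes from lists of named genes. Of 13 type I interferon genes with a probe, 6 were dimly above background on both arrays and none was 2-fold apart. The 6 differences ranged from -0.97, close to the 2-fold line, to 0.13, with 3 negative and 3 positive and a median of -0.16. Ifnb1 was not above background on either array. The receptor genes Ifnar1 and Ifnar2 differed by 0.03 ± 0.20 and 0.39 ± 0.20. Among 19 receptor, kinase, STAT, IRF and SOCS genes, 1 was at least 2-fold lower and 1 at least 2-fold higher, with a median of -0.25. The lower was Irf7, the factor that amplifies interferon production, at -3.04 in the co-culture and 0.14 in the naive-only culture, 9.09-fold lower (-3.18 ± 0.26). The higher was Ifngr1, a chain of the interferon gamma receptor, at 1.25 ± 0.20. Of the factors that bind the ISRE, Irf9 differed by -0.88 ± 0.20 and Stat2 by 0.36 ± 0.20.

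Of 9 measured adaptors and kinases that induce interferon, Ikbke, a kinase of IRF factors, was at least 2-fold lower (-1.17 ± 0.21), and the median was 0.00. The GBP and IRG GTPases, induced by interferons of both types, were at least 2-fold lower in 8 of 15 genes and at least 2-fold higher in none, with a median of -1.24. Gbp2 (-2.92 ± 0.20) and Gbp6 (-2.39 ± 0.21) led them. Ifng, which encodes interferon gamma, had 7.59 in the co-culture and 6.60 in the naive-only culture, 1.99-fold higher at 0.99 ± 0.20. Its list of 10 measured genes, itself and targets, had a median of 0.11. A further target, Ciita, was above background on the naive-only array only, at least 1.68-fold lower. With Ciita at its bound the median was -0.11. In this list the chemokine genes Cxcl10 (-3.52 ± 0.21) and Cxcl9 (-1.98 ± 0.30) were at least 2-fold lower. Ido1, which encodes a tryptophan-degrading enzyme, was at least 2-fold higher (1.02 ± 0.32).

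Markers of B cells were lower on the same array, as were 4 of 7 measured genes listed for conventional dendritic cells. Those of other cells varied by list. Of 12 B cell markers, 10 were above background on both arrays and all 10 were at least 2-fold lower in the co-culture, with a median of -1.74, and the other 2, Blk and Pax5, were above background on the naive-only array only. The summed signal of the 12 probes, in multiples of the array's 75th percentile, was 9.23 in the co-culture and 41.4 in the naive-only culture. Ms4a1 (CD20) had -1.51 in the co-culture and 3.52 in the naive-only culture. Of 10 conventional dendritic cell markers, 4 of 7 measured were at least 2-fold lower (Flt3, H2-Aa, H2-Eb1 and Fscn1) and 1, Batf3, higher. The summed signal was 64.8 in the co-culture and 89.1 in the naive-only culture. Without Batf3, left out after its value was seen, the sums were 9.31 and 84.2. H2-Eb1, at a level of 3.07 in the co-culture and 6.19 in the naive-only culture, was then the brightest of the list on both arrays. The defining genes Xcr1, Clec9a and Cd209a were not above background on either array. The arrays do not show which cells carried the 4 lower transcripts. A change in dendritic cells apart from that in B cell markers was thus not tested. Of 7 plasmacytoid dendritic cell markers, 1 of 6 measured was at least 2-fold lower (Tcf4) and 1 higher (Runx2). The other, Klk1, was above background in the naive-only culture alone, at least 3.11-fold lower. The summed signals were 236 in the co-culture and 261 in the naive-only culture, and sums of this kind are led by the brightest probes. The plasmacytoid list shares Bst2 with the antiviral genes. Of 8 macrophage and monocyte markers, 2 of 5 measured were at least 2-fold lower and all 5 had a negative difference. Their summed signals were 4.85 in the co-culture and 6.82 in the naive-only culture, with all 8 counted. Fcgr1, Mertk and Cd163 were not above background on either array. Tyrobp, the 1 natural killer cell marker of 6 measured on both arrays, differed by -1.50, while Ncr1 and Klra8 were above background in the naive-only culture alone (at least 2.38-fold and 1.57-fold lower) and Klrd1 in the co-culture alone (at least 4.62-fold higher). For erythroid cells, 2 of 3 measured markers were at least 2-fold lower. None of 4 measured neutrophil markers and neither CD8 T cell marker was 2-fold apart, but Mpo, a further neutrophil marker, was above background in the co-culture alone, at least 3.95-fold higher. The part of such cells in the lower antiviral genes was not tested.

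**Figure D5:**
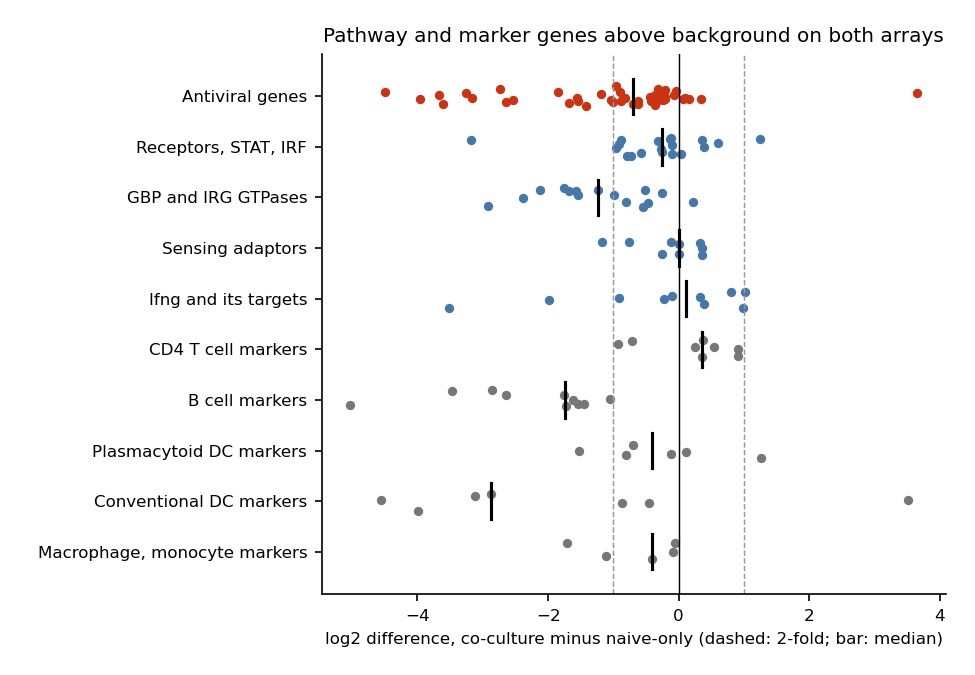
Log2 difference, co-culture minus naive-only (horizontal axis), of each gene above background on both arrays in the antiviral set (red), pathway lists (blue) and cell type markers (grey), with vertical bars at the medians. The antiviral genes have a median of -0.70, the GBP and IRG GTPases -1.24, the B cell markers -1.74 and the conventional dendritic cell markers -2.87, while CD4 T cell markers have 0.36.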

How the data were processed

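Total RNA was amplified (Ovation RNA Amplification System V2) and the cDNA labelled with Cy3, per the labels' protocols; amplification can alter relative levels. Agilent Feature Extraction 10.7.1.1 produced the deposited spot intensity per the file headers, while the submitters' processing notes name 9.5.1.1. The deposited table of normalized intensity, whose steps are not given in the sources used here, has nearly equal sorted columns (within 0.0369%; median 14.5 in both), and its log2 differences correlated at 0.999 with those used here across probes; it served as an alternative.

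Processed signals were averaged over a probe's spots and put on the log2 scale, less the array's 75th percentile (301 intensity units on the co-culture array and 299 on the naive-only array, noncontrol probes). Genes carry the array's own names; 33008 probes had such a name, and a gene took its brightest probe. A gene counted as measured where the deposited 0 or 1 call of the scanner software placed it well above background on the 2 arrays. With 1 array per group the number of arrays limits the precision, and no p-value was computed. Both arrays came from the same slide and scan. Members, lists and naming rule (all members, up to 4 genes past 2-fold per other list and direction, and 10 set genes) were chosen with earlier results of these data known. Protein comparisons were not made. Functions were tested on simulated data. Python 3.11.15, numpy 2.4.6, pandas 2.3.3, matplotlib 3.10.9, R 4.3.3 and limma 3.58.1 were used. Alternatives were normexp (offset 50), other scalings, probe choices, filters, leaving out marked spots, and updated symbols.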

Additional observations from a re-analysis of the deposited data

How the results depend on the processing

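No paired analysis was possible because each group had 1 array. Slide could not matter as a block, since both arrays share it. Of 13 alternatives, 2 (loess on level, and scaling to the CD4 T cell markers) were added after the data were seen. The count of genes at least 2-fold lower was 16, where the share over all measured genes was 5.2%. With normexp the count was 13 (all genes 3.41%). It was 15 to 17 under the other scalings (all genes 4.77% to 5.33%), except that to the T cell markers, with 22 (all genes 12.3%). Without a filter on dim probes it was 22 of 49 (all genes 7.28%). Among genes above the median level it was 2 (all genes 2.72%). There 16 of the 43 genes were left and 0 were 2-fold higher (all genes 5.51%). The median of -0.70 became -0.29 in that bright subset. The subset was cut on the mean level over both arrays, so a low co-culture level itself helped to leave a gene out. There the sensor group was at -0.82, the remaining induced genes at -0.16, and the OAS and IFIT group, reduced to Oas1b, turned to 0.35. With normexp the sensors were at -0.91, OAS and IFIT at -1.37 and the remaining induced genes at -1.22; the cause was not tested. With no filter, OAS and IFIT were at -3.17 and the GTPases and membrane proteins at -0.80, against 0.07 as reported. The dimmest measured probe put the ISG15 pathway at -0.73. Scaling to the T cell markers moved the median of all genes to -0.40 (-0.04 as reported), raised the share of lower calls among all calls to 71.1% (38.6% as reported), and put the median of the set at -1.06 and those of sensors, OAS and IFIT, the ISG15 pathway, GTPases and membrane proteins, PARP and nuclear genes and the remaining genes at -1.51, -3.09, -0.89, -0.29, -0.65 and -1.91; Ddx58, Oas1b, Ifitm2 and Ifitm3 are then negative. No gene past 2-fold changed sign under any alternative, though some alternatives leave a gene's value as it is.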

Other observations

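Relatives of these genes by name were chosen after the data were seen. Oas1f, a further OAS1 copy, had -0.99 in the co-culture and 1.96 in the naive-only culture (-2.95 ± 0.21), and the other 3 measured OAS relatives were within 2-fold. Ifitm6 had -0.07 in the co-culture and -3.31 in the naive-only culture, a difference of 3.24 ± 0.27 in the direction of Ifitm1, near the lowest level above background on the naive-only array (-4.03), whereas Ifitm7 differed by -0.39 ± 0.20. Ifi202b, a PYHIN gene, was lower by -3.12 ± 0.21, and Ifi47, an interferon-inducible GTPase gene, by -1.53 ± 0.20, while Ifi27l1 (0.50), Ifi27l2a (-0.74) and Ifi30 (-0.61) were within 2-fold. Of 32 other measured TRIM genes, 3 were at least 2-fold lower, Trim30a, Trim30d and Trim13, and 1, Trim46, higher, with a median of 0.19. Of 9 other PARP genes, Parp3 and Parp8 were at least 2-fold lower and Parp16 and Parp4 higher, with a median of 0.09. Of 49 other DEAD and DEAH box helicase genes, 2 were lower and 1 higher, with a median of -0.33.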
